A study of Homo sapiens with 2 samples.

Results

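The loci of 9 genes of the T cell receptor (TCR) complex and its first signalling steps were examined in a peak list of UTX, a histone demethylase, from Jurkat cells and in a peak list of TAL1, a transcription factor, from an earlier study. The genes were CD3E, CD3D, CD3G, CD247, LCK, ZAP70, LAT, CD28 and CD2, covered by 7 windows of hg19 that were set by gene position and that total 530 kb. The genes and windows were chosen with earlier results of these data known. A peak belonged to a window if it shared 1 base or more with it, which gave 31 of the 17396 UTX peaks and 6 of the 2678 TAL1 peaks. Peaks were not placed on gene features, so a peak of any window need not belong to the gene that names it. Chromatin immunoprecipitation with sequencing had been made in untreated cells of Jurkat, an established line from a human T cell acute lymphoblastic leukaemia, with 1 library for UTX (an in-house antibody mixed with A302-374A) and 1 mock library with isotype IgG, both from chromatin sheared to 100 to 300 bases. Of the mock library, no values were analysed here. The sources used here do not name the cells behind the TAL1 list. With 1 library of 1 line and no replicate, none of the differences below has a replicate check. The lists give positions only, so depth is unknown, peak width is the only measure of size, and the state of the cells could not be set against marker expression.

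The TCR recognises peptide presented by MHC molecules and has no signalling domain of its own. It signals through the CD3 chains and the CD247 (zeta) chain, whose cytoplasmic tyrosine motifs are phosphorylated by the kinase LCK. ZAP70 docks on these motifs and phosphorylates LAT, a membrane scaffold that gathers the downstream enzymes, while CD28 gives the costimulatory signal and CD2 is an adhesion receptor that binds CD58. UTX (KDM6A) demethylates histone H3 at lysine 27, where methylation marks repressed chromatin, and TAL1 is a basic helix-loop-helix factor that binds E-box motifs with partner proteins and is switched on aberrantly in a subset of T cell leukaemias.

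Upstream sequences of CD3D, LCK, ZAP70, LAT and CD2 are shown, since an E-box is the class of motif that TAL1 is known to bind. The CD3, LCK, ZAP70, LAT, CD28 and CD2 windows each held a TAL1 peak, and the sequences printed are a selection from these loci made after they were seen. The remaining start sites, those of CD28 and CD247 included, enter the counts that follow. Among those not printed are the second ZAP70 start and the first LAT start, which hold no match to the motifs below. The first ZAP70 start, with 2 E-boxes, is not printed either. All sequences are from RefSeq on GRCh38.p14, a build other than that of the peaks, so no peak could be placed on them. Each runs 5′ to 3′ on the gene's strand and holds the 250 bases before an annotated start. Capitals mark matches, on either strand, to the E-box CANNTG, to AGATAA for zinc finger factors of the GATA family, to GGAAGT for ETS factors or to TGTGGT for RUNX factors.
LCK, chr1:32251015-32251264, plus strand, first start: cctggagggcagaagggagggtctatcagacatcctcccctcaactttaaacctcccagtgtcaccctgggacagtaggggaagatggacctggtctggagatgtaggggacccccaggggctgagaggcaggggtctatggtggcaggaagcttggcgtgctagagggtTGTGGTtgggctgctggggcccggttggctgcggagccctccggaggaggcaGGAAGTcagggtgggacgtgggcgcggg
LCK, chr1:32273871-32274120, plus strand, the other start: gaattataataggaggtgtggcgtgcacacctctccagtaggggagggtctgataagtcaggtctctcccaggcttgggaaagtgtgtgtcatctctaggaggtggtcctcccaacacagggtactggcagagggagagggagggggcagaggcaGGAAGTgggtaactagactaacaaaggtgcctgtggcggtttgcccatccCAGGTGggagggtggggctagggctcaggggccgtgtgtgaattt
CD3D, chr11:118342706-118342955, minus strand: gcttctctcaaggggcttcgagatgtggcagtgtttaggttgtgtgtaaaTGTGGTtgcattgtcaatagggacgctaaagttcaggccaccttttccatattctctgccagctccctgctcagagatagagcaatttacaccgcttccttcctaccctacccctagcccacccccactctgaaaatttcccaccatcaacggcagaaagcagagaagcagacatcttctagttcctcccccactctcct
ZAP70, chr2:97733050-97733299, plus strand, the last of its 3 starts: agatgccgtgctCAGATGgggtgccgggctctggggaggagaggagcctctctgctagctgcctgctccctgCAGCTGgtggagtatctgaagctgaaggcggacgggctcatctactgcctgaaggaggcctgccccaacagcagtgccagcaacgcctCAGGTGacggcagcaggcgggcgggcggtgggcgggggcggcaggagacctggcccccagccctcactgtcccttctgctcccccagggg
LAT, chr16:28984802-28985051, plus strand, the last of its 2 starts: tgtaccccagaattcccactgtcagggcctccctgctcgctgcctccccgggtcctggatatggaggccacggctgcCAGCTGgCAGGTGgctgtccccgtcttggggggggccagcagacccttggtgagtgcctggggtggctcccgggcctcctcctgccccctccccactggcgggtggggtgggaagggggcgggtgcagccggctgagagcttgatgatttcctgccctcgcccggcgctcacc
CD2, chr1:116754180-116754429, plus strand: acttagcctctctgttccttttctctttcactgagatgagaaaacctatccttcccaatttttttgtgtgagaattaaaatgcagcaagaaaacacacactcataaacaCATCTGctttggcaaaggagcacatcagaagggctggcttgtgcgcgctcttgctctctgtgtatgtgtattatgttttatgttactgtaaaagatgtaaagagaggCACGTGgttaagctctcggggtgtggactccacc
The promoter table matched 7 of the 9 genes, with 11 start sites in all. CANNTG was present in 7 of these 11 sequences, against 61.8% of the 35116 promoters in the table. Within that class, CAGATG was present in 2 (a ZAP70 start and CD2) and CAGCTG in 3 of the 11 (starts of ZAP70 and LAT), against 12.2% and 14% of all promoters. GGAAGT was present in 3 of 11 (19.5% of all), TGTGGT in 3 of 11 (11% of all) and AGATAA in 0 of 11 (9.17% of all). The ZAP70 sequence printed lies downstream of the gene's first start, whose sequence is chr2:97713326-97713575. The LAT sequence printed likewise lies, but for its first base, downstream of the gene's first start, whose sequence is chr16:28984553-28984802. The LCK sequence of the other start lies downstream of the first LCK start. Such sequences can hold transcribed bases and need not be promoters. The ZAP70 sequence gave 1 of the CAGATG and 1 of the CAGCTG sequences counted, and the LAT sequence gave 1 of the CAGCTG sequences. The letters describe the sequences before annotated starts and do not mark bound sites.

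TAL1 was called exactly 1 time in 6 of the 7 windows, each time inside a UTX peak. The CD3, LCK, ZAP70, LAT, CD28 and CD2 windows each held 1 TAL1 peak, and the CD247 window held 0. All 6 TAL1 peaks overlapped UTX (100%, 95% exact Clopper-Pearson binomial interval 54.1 to 100%, for counting of peaks only), beside 80.8% of the whole TAL1 list, a share that lies within the interval. All 6 also lay wholly inside their UTX peak, as 72.9% of the whole TAL1 list did. Of the 31 UTX peaks, 6 held TAL1 (19.4%, interval 7.45 to 37.5%), beside 12.1% of the whole UTX list, which the interval again includes. The other 25 UTX peaks held none, so most UTX sites at these loci, as in the whole list, were called without TAL1.

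UTX peaks were denser in these windows than over the whole list. The windows held 58.5 UTX peaks per Mb, beside 5.88 per Mb over the 2959.6 Mb between the first and last peaks of the 24 chromosomes. For TAL1 the densities were 11.3 and 0.905 peaks per Mb. UTX peaks covered 2.84% of the windows' length, beside 0.229% over the genome. As background, each chromosome was divided into consecutive stretches of a window's length. At least 1 TAL1 peak lay in 3.24% of stretches of 40 kb, 4% of 50 kb, 5.41% of 70 kb, 7.49% of 100 kb and 9.33% of 130 kb. The stretches include gene-poor sequence and assembly gaps, and gene content was not matched, so these percentages describe the lists and test nothing.

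**Figure D1:**
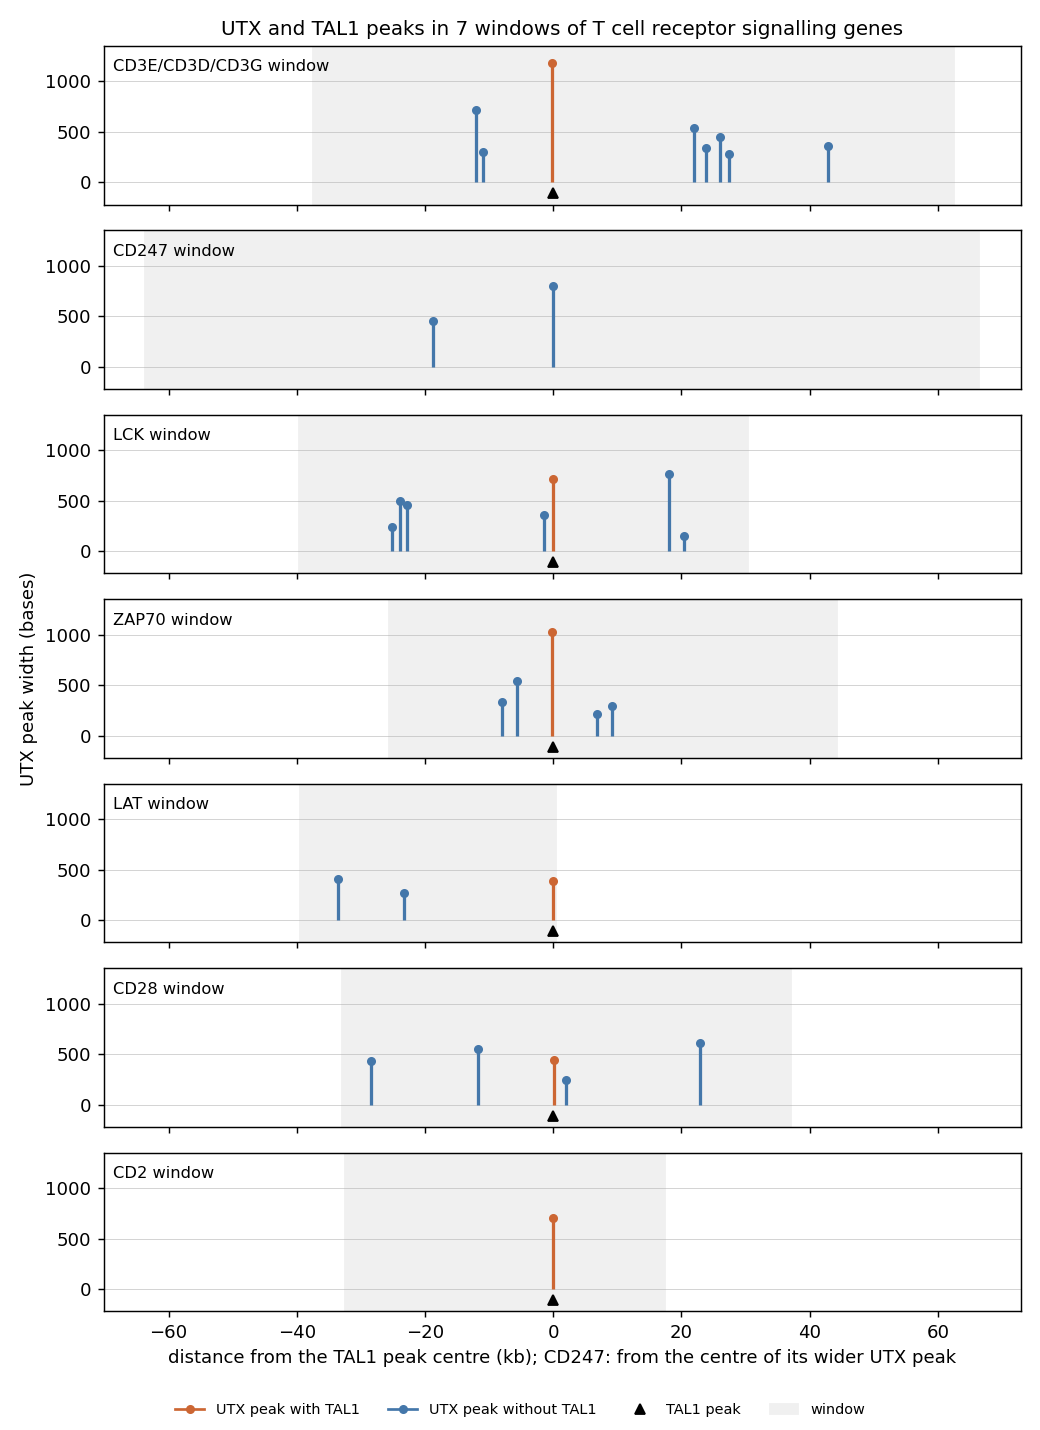
Each panel is 1 window, with distance in kb from the TAL1 peak centre (for CD247, from the centre of its wider UTX peak) on the x axis and UTX peak width in bases on the y axis. Stems are UTX peaks, orange with TAL1 and blue without, triangles are TAL1 peaks and grey is the window. There is 1 orange stem in each panel but that of CD247, and the stem of LAT stands at the window's edge.

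Among the receptor chains, the CD3 window held many UTX peaks and the CD247 window few. CD3E, CD3D and CD3G encode the epsilon, delta and gamma chains that assemble in pairs around the TCR. The CD3 window, chr11:118150000-118250000, held 8 UTX peaks with widths of 278 to 1186 bases (median 400.5), a number reached by 0.341% of the genome's stretches of 100 kb. The widest, 1186 bases at chr11:118186817-118188002, was the one that held the TAL1 peak, 163 bases at chr11:118187458-118187620, and 222 peaks of the whole UTX list were at least that wide. The next in width, 713 bases at chr11:118175110-118175822, had no TAL1 peak and lay 11.6 kb from it. A run of 4 UTX peaks within 5.89 kb, chr11:118209191-118215076, also held no TAL1 peak. The 7 UTX peaks without TAL1 in this window were 10.7 to 42.5 kb from the TAL1 peak. In the RefSeq gene order the cluster is flanked by MPZL2 and UBE4A, so a peak of this window need not belong to a CD3 gene.

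CD247, the zeta chain, is the signalling dimer with the most tyrosine motifs of the complex. Its window was the longest, 130 kb at chr1:167380000-167510000, and held 2 UTX peaks, a number reached by 18.2% of stretches of that length. They measured 801 bases at chr1:167443209-167444009 and 457 bases at chr1:167424655-167425111. Both stood alone, 18.1 kb from each other, and were 153 and 172 kb from the nearest TAL1 peak. A further UTX peak, 168 bases at chr1:167513918-167514085, lay 3.92 kb past the end of the window. The nearest TAL1 peaks outside the window lay 247 kb before its start and 87.4 kb after its end. These gaps do not set the window apart. Across the whole list, UTX peaks without TAL1 typically stood farther off than both CD247 peaks, with 218 kb as the middle value.

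Of the 2 kinases, LCK had the densest UTX peaks of the 7 windows. LCK is the Src-family kinase that starts TCR signalling, and it is known to be transcribed from separate distal and proximal promoters. Its window, chr1:32700000-32770000, held 7 UTX peaks (100 per Mb), a number reached by 0.189% of stretches of 70 kb. They fell into 3 groups of 3, 2 and 2 peaks, each group within 1.81 to 2.84 kb with gaps of 21 and 17.4 kb between the groups. The TAL1 peak, 90 bases at chr1:32739612-32739701, lay in the middle group, in a UTX peak of 718 bases at chr1:32739196-32739913. It was the narrowest of the 6 TAL1 peaks, and 5.04% of the TAL1 list was narrower. The other UTX peak of that group, 360 bases at chr1:32738106-32738465, lay 1.15 kb from TAL1 and did not overlap it. The widest UTX peak of the window, 760 bases at chr1:32757270-32758029, was in the last group, without TAL1 and 17.6 kb from it. In the RefSeq gene order LCK is flanked by FAM167B and HDAC1, so a peak of this window need not belong to LCK.

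ZAP70, the kinase recruited to the phosphorylated chains, had all of its UTX peaks in 1 group. The 5 UTX peaks of its window, chr2:98310000-98380000, lay within 17.5 kb, each less than 10 kb from the next, and measured 214 to 1028 bases. As many or more peaks were present in 0.839% of stretches of 70 kb. The widest, 1028 bases at chr2:98334898-98335925, held the TAL1 peak of 147 bases at chr2:98335591-98335737. The next in width was 541 bases at chr2:98329746-98330286, without TAL1. All 4 UTX peaks without TAL1 were 5.3 to 8.96 kb from the TAL1 peak. That TAL1 peak was the most isolated of the 6, with 707 kb to the next TAL1 peak, whereas the median over the TAL1 list was 145 kb.

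At LAT, the scaffold phosphorylated by ZAP70, the TAL1 peak lay at the border of the window. The window, chr16:28980000-29020000, held 3 UTX peaks of 409, 274 and 386 bases, and 1.65% of stretches of 40 kb held as many. The peak of 386 bases, chr16:29019383-29019768, contained the TAL1 peak of 209 bases at chr16:29019442-29019650, the widest of the 6 TAL1 peaks. Its UTX peak ended 232 bases before the border. Just outside, 549 bases past the border, a UTX peak of 483 bases at chr16:29020549-29021031 overlapped another TAL1 peak, 199 bases at chr16:29020686-29020884. The 2 TAL1 peaks were 1.03 kb apart, the closest neighbours of the 6. The remaining UTX peaks, 409 bases at chr16:28985826-28986234 and 274 bases at chr16:28996119-28996392, were 33.2 and 23 kb from TAL1. The edge of the window thus separated a pair of shared sites. When window edges were moved by 10 kb, only the LAT window changed its TAL1 count. The TAL1 peak 11 kb before the CD28 window lay beyond that move.

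CD28, the costimulatory receptor, had its TAL1 peak at a UTX peak of middle rank. Its window, chr2:204550000-204620000, held 5 UTX peaks of 248 to 610 bases, as many as the ZAP70 window of the same length. The TAL1 peak, 183 bases at chr2:204582801-204582983, lay in a UTX peak of 442 bases at chr2:204582734-204583175, which was number 3 of the 5 in width. The wider 2 were 610 bases at chr2:204605564-204606173 and 547 bases at chr2:204570964-204571510, 22.6 and 11.3 kb from TAL1. A UTX peak of 248 bases lay 1.81 kb from the TAL1 peak without touching it. Outside the window, 11 kb before its start, a further TAL1 peak of 93 bases was called at chr2:204538867-204538959, inside a UTX peak of 329 bases at chr2:204538646-204538974.

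At CD2 a lone UTX peak carried TAL1. The CD2 window, chr1:117280000-117330000, held 1 UTX peak, 702 bases at chr1:117312108-117312809, with a TAL1 peak of 124 bases at chr1:117312465-117312588 inside it. A count of at least 1 UTX peak was reached by 19% of stretches of 50 kb. The next UTX peak was 46.3 kb away and outside the window, 397 bases at chr1:117359084-117359480. It also held a TAL1 peak, 127 bases at chr1:117359310-117359436. The UTX peak in the window was wider than 92.7% of the whole UTX list.

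**Figure D2:**
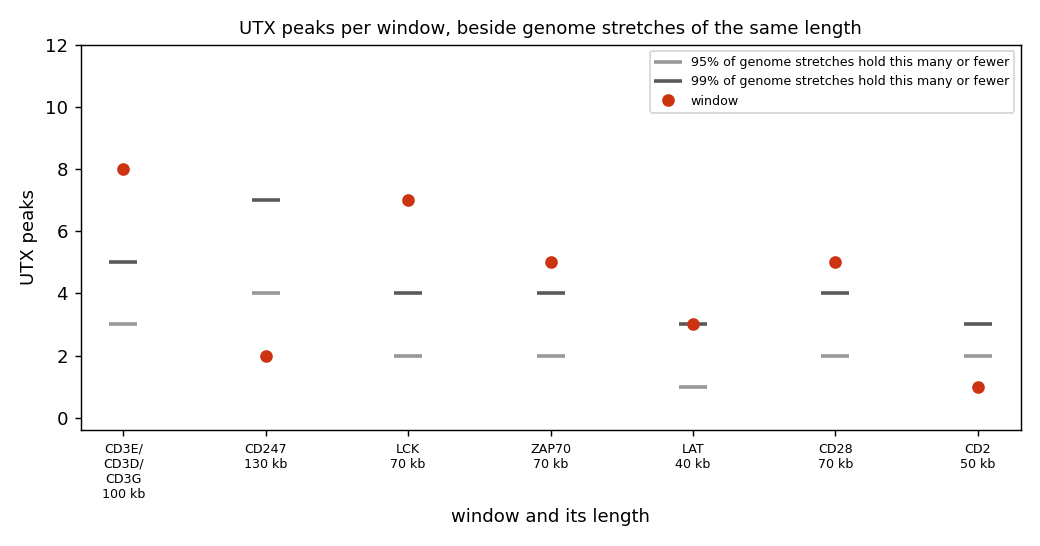
Number of UTX peaks on the y axis for each window (red points) on the x axis. The bars mark the counts that 95% and 99% of genome stretches of the same length do not exceed. The CD3, LCK, ZAP70 and CD28 windows lie above the bar for 99%, LAT on the bar for 99%, and CD247 and CD2 below the bar for 95%.

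Widths at these loci were above those of the list as a whole. The 31 UTX peaks had a median width of 442 bases (quartiles 315.5 and 578.5, range 153 to 1186), beside 320 bases (230 and 457) for all UTX peaks. Of the 31, 13 (41.9%) fell in the widest quartile of the list (458 bases or more) and 2 (6.45%) in the narrowest (230 bases or less). The 6 UTX peaks with TAL1 had a median of 710 bases (386 to 1186) and the 25 without had a median of 409 (153 to 801), so the ranges overlapped. In the whole list the medians were 405 and 310 bases. The UTX peak with TAL1 was the widest of its window at CD3 and ZAP70, and the only one at CD2. It was number 2 in width at LCK and LAT and number 3 at CD28. Of the 7 members over 700 bases, 4 held TAL1, and of all 1283 UTX peaks over 700 bases, 24.1% did. The remaining 3, at CD3, CD247 and LCK, were wide UTX peaks without TAL1.

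**Figure D3:**
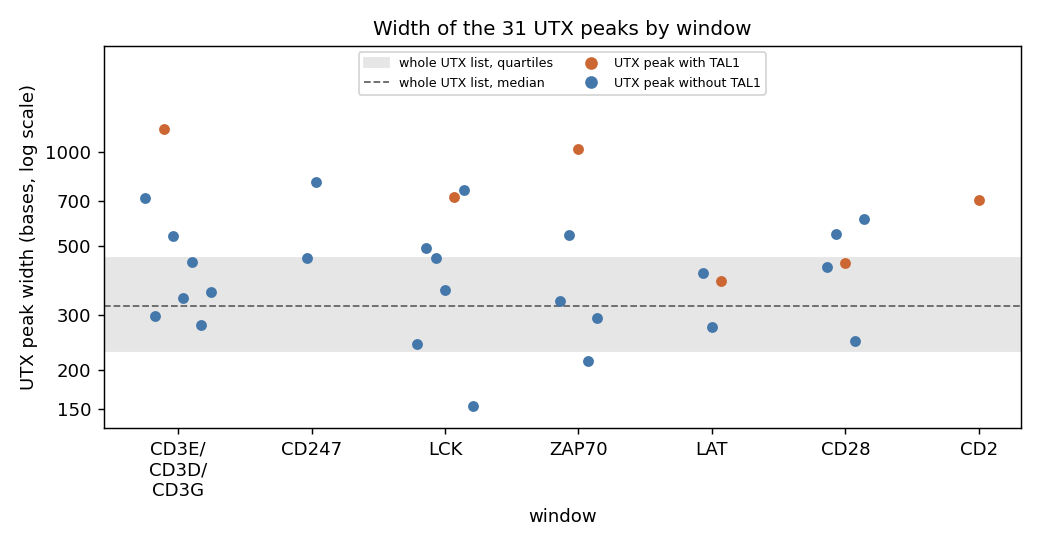
Width in bases (log axis) of the 31 UTX peaks by window, orange with TAL1 and blue without. The grey band and dashed line are the quartiles (230 and 457 bases) and median (320 bases) of the whole UTX list. The orange points of CD3, LCK, ZAP70 and CD2 lie above the band, and those of LAT and CD28 within it.

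Within the shared sites, the TAL1 peak took up a small part of the wide UTX peaks, and the centres were 29.5 to 252.5 bases apart. TAL1 filled 12.5% of the UTX peak at LCK, 13.7% at CD3, 14.3% at ZAP70 and 17.7% at CD2, but 41.4% at CD28 and 54.1% at LAT. The median of the 6 was 16%, beside 39.5% over the 2163 TAL1 peaks that overlap UTX in the whole list. The centres of the 2 peaks were 29.5 bases apart at LAT, 62.5 at CD28, 68 at CD2, 102 at LCK, 129.5 at CD3 and 252.5 at ZAP70. The median was 85 bases, beside 44.5 bases (quartiles 20 and 87) in the whole list. A wider UTX peak lowers the share that a TAL1 peak fills and leaves room for a larger offset. UTX width was not matched in these comparisons, so they do not separate the position of TAL1 from the width of the UTX peak. At ZAP70 the TAL1 peak lay 188 bases from the right end of the UTX peak and 693 from the left, and 96.8% of all shared TAL1 peaks were as close to their UTX centre or closer. The 6 TAL1 peaks were 90 to 209 bases wide with a median of 155, beside 147.5 for the whole TAL1 list.

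**Figure D4:**
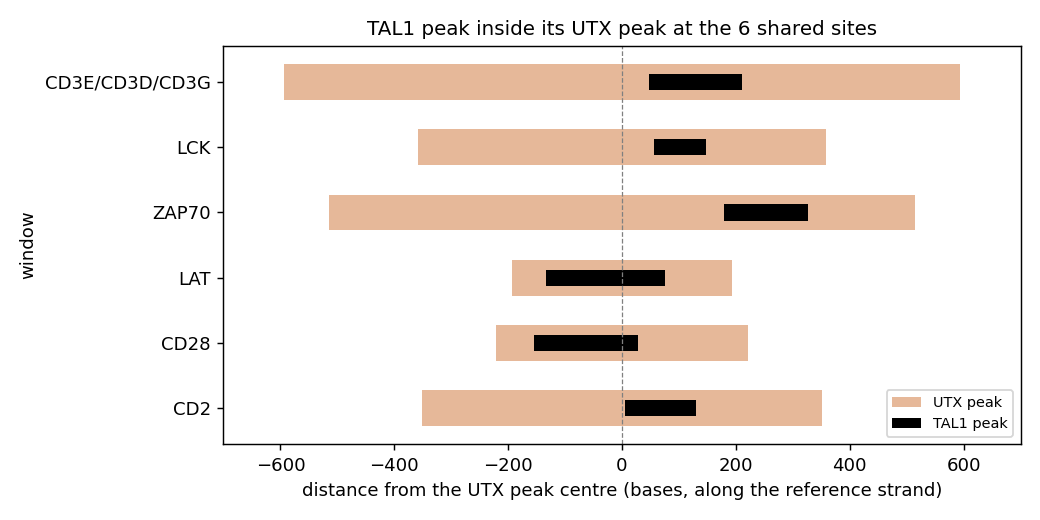
Extent of the UTX peak (light bars) and TAL1 peak (black bars) at the 6 shared sites, in bases from the UTX peak centre along the reference strand. The black bar lies inside the light bar at every site, and its offset is largest at ZAP70 (252.5 bases).

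UTX peaks at these loci were close to one another. When neighbours within 10 kb were joined inside each window, the 31 peaks formed 17 groups: 9 lone peaks, 5 pairs and groups of 3, 4 and 5 peaks. Of the 31 peaks, 23 (74.2%) had another UTX peak within 10 kb, beside 40.9% of the whole list, and the median distance to the next UTX peak was 1.93 kb, beside 16.6 kb. From the 25 UTX peaks without TAL1, the nearest TAL1 peak was a median of 21.6 kb away (1.15 to 172 kb), beside 218 kb for such peaks in the whole list. Where a window holds a TAL1 peak, its length sets an upper limit on these distances.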

How the data were processed

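The 2 deposited lists hold peak positions (chromosome, start and end) with no score, fold or read count. For UTX, hg19, MACS2 2.0.10, BWA 0.6.2 and SAMtools 0.1.18 are named in the submitters' processing notes. The order of steps, the threshold, the use of the mock and the calling and build of the TAL1 list were not given in the sources used here. Both lists were read as hg19 and positions are printed counted from 1.

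Peaks were shared at an overlap of at least 1 base, checked with bedtools 2.31.1 and on simulated lists. Counts and intervals were computed with scipy 1.17.1, numpy 2.4.6 and Python 3.11.15, and figures with matplotlib 3.10.9. Shares carry 95% exact binomial intervals; peaks are not replicates, so no test was made. In each window, all TAL1 peaks, the UTX peaks they overlap and the 2 widest UTX peaks were given with positions; other peaks and those outside were added after their values were seen. The windows, genes and motifs were chosen with earlier results of these data known. A longer list of pathway genes was not used, since the gene table follows GRCh38.p14 and served for names, order and promoters only.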

Additional observations from a re-analysis of the deposited data

How the results depend on the processing

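Across 55 values recomputed under other settings, shares stayed inside the interval of the reported value, and densities and median widths within 1.5 times of it. All TAL1 peaks of the windows overlapped UTX under each of the 14 settings tried. All 6 lay wholly inside a UTX peak, so most of these settings could not have lowered the share. That holds for leaving out a window, shorter windows, the wider 50% of the TAL1 list, an overlap of 50% of the shorter peak and peaks within 1 kb. The share of UTX peaks with TAL1 ran from 9.68% (3 of 31) with the wider 50% of the TAL1 list, which keeps fewer TAL1 peaks by construction, to 26.1% (6 of 23) with the wider 50% of the UTX list. Ending the windows 10 kb earlier at each side removed the LAT site and left 5 TAL1 peaks (17.9% of 28 UTX peaks with TAL1); extending them by 10 kb gave 7 TAL1 peaks (20.6% of 34). Leaving out 1 window at a time gave 16.7% (without CD2) to 21.7% (without CD3), and density ran from 50.7 to 72.5 UTX peaks and from 10.2 to 15 TAL1 peaks per Mb over all settings. No paired analysis was possible because UTX and mock are lone libraries. How far depth limited which peaks were called is unknown.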
